A study of Mus musculus with 13 samples.

Results

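The Hox genes are the 39 mouse genes of the Hoxa, Hoxb, Hoxc and Hoxd clusters. They were taken by symbol, as Hoxa, Hoxb, Hoxc or Hoxd followed by a number and nothing else, from the 43629 genes of the count files, so the antisense and other non-coding genes of the clusters are not members. The Hoxa cluster gave 11 members on chromosome 6, the Hoxb cluster 10 on chromosome 11, the Hoxc cluster 9 on chromosome 15 and the Hoxd cluster 9 on chromosome 2. By paralog number, 8 members are anterior (1 to 3), 15 central (4 to 8) and 16 posterior (9 to 13). The rule uses symbols and no measured value, but it was set with earlier results of these data known.

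The study asked which RNAs are clients of IMP1 and IMP2, RNA-binding proteins encoded by Igf2bp1 and Igf2bp2, in mouse embryonic fibroblasts (MEFs) at E12.5 kept in culture. RNA was sequenced after pull-down (immunoprecipitation, IP) with IgG, IMP1 or IMP2 antibodies, 3 libraries each, and as total RNA from knockout (KO) and wild-type (WT) cells, 1 library each: the IMP1 KO with its own IMP1 WT, and the IMP2 KO with its own IMP2 WT. The labels do not give the genotype of the pull-down cells, whether replicates were separate cultures, or how many embryos or lines stood behind a library. P-values therefore measure only the spread between these libraries, which may be technical, and the total RNA comparisons have no replicate check.

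Hox genes encode homeodomain transcription factors that set positional identity along the body axis and the limb. Within a cluster the genes lie in the order in which they act, the low-numbered genes in the head and neck region and the high-numbered ones in the trunk, tail and distal limb. Genes of the same number in different clusters are paralogs, copies of an ancestral cluster. Cultured fibroblasts commonly keep the Hox pattern of the body site they came from, and Polycomb and Trithorax proteins maintain that pattern.

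Counts assigned to genes ran from 11430002 in the IMP1 KO library to 21756430 in the third IMP2 IP library. Igf2bp1 stood at 32.1 CPM (counts scaled to library size) in IMP1 WT and 3.28 in IMP1 KO, with 23.8 in IMP2 WT and 16.2 in IMP2 KO. Igf2bp2 stood at 148 CPM in IMP2 WT and 28.02 in IMP2 KO, with 167 in IMP1 WT and 133 in IMP1 KO. Both targeted genes were thus lowest in the library labelled as their knockout, and neither was at 0. CPM were scaled within the 4 total RNA libraries and separately within the 9 pull-down libraries, so levels on these scales are not set against each other. The 14 fibroblast markers summed to between 37019 and 62286 CPM in the total RNA libraries, epithelial markers to at most 2.67, endothelial markers to at most 5.96 and neural markers to between 51.4 and 66.5.

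The 6 promoter windows printed here were chosen because their genes behaved differently in the results that follow. Hoxa2 was higher in the IMP2 KO library, Hoxa7 was higher in IMP1 KO, Hoxb8 and Hoxc4 were low in IMP2 KO but not in IMP1 KO, and Hoxa10 and Hoxd13 were nearly or wholly without counts in at least 1 knockout. Each window runs 300 bases on the gene's strand, from RefSeq, build GRCm38.p6, with CG dinucleotides in capitals.
Hoxa2, chr6:52164782-52165081, minus strand: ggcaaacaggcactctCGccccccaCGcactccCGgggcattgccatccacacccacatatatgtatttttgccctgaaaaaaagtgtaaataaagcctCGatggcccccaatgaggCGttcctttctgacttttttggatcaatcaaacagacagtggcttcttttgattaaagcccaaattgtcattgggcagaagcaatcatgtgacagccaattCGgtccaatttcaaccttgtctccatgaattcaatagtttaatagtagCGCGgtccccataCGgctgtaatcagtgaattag
Hoxa7, chr6:52218524-52218823, minus strand: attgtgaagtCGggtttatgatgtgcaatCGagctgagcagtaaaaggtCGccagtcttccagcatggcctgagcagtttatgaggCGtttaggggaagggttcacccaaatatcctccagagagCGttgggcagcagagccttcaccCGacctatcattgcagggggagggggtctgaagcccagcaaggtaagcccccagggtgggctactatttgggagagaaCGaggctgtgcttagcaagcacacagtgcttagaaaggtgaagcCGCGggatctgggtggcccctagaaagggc
Hoxa10, chr6:52234890-52235189, minus strand: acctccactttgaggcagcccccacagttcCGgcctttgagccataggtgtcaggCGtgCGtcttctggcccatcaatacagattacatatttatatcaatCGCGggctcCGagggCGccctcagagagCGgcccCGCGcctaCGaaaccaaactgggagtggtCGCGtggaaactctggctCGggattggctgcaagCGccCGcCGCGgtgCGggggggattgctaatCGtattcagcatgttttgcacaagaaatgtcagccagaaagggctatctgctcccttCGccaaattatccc
Hoxb8, chr11:96281655-96281954, plus strand: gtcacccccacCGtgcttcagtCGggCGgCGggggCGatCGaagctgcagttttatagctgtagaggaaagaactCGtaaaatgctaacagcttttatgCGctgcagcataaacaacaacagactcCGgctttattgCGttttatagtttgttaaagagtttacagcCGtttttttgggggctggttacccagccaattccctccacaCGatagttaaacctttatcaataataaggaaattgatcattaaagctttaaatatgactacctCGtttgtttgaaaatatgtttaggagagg
Hoxc4, chr15:103034145-103034444, plus strand: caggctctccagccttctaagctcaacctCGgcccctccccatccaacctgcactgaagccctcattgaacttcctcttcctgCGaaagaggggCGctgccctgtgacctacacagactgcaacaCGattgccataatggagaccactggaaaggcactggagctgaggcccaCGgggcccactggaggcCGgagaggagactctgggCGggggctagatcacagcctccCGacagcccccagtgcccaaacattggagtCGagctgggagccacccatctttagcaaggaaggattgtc
Hoxd13, chr2:74667975-74668274, plus strand: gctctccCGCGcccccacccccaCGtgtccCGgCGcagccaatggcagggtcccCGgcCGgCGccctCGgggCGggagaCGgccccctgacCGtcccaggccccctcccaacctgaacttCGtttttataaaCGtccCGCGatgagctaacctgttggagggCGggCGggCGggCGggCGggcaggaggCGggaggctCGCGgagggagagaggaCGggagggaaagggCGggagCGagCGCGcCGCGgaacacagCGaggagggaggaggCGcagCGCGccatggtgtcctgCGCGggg
The table held 24 windows for 22 of the Hox genes. Their median was 14.5 CG dinucleotides, against 7 over all 32851 windows, with a range from 4 to 45. Hoxd13 has 37, the printed window of Hoxa10 has 21 and its other window, chr6:52240805-52241104, has 12 and no TATAAA, Hoxb8 has 13, and Hoxa2, Hoxa7 and Hoxc4 have 9 each. On either strand, TATAAA occurred in windows of Hoxa10, Hoxb8, Hoxd4 and Hoxd13 and in 13.62% of all windows. The Pbx-Hox site TGATTNAT occurred in windows of Hoxa2 and Hoxd11 and in 3.221% of all windows, and the Cdx site TTTATGG in a window of Hoxd4 and in 2.749% of all. These matches describe the letters only.

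The wild-type fibroblasts carried RNA of all 4 clusters. Summed over the 39 members, Hox RNA made up 564 CPM in IMP1 WT and 544 CPM in IMP2 WT. Central genes gave 56.3% and 52.2% of these sums, posterior genes 37.8% and 42.9%, and anterior genes 5.87% and 4.94%. The Hoxd cluster gave 7.36% and 11.97%, less than any other cluster. Transcript lengths are not in the files used here, so shares and ranks of genes by CPM are not corrected for length. Hoxb1 had no counts in any total RNA library, and Hoxb13, Hoxc12, Hoxd1 and Hoxd3 had at most 3. Hoxc11 and Hoxc13 had 14 to 24 counts in the wild types and 2 to 7 in the knockouts.

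The 6 members with the highest mean CPM in the wild types were Hoxb9, Hoxc6, Hoxa10, Hoxc8, Hoxa7 and Hoxa5. Hoxb9, a posterior trunk gene, stood at 77.8 CPM in IMP1 WT, 52.0 in IMP2 WT, 106 in IMP1 KO and 4.68 in IMP2 KO. Hoxc6, a thoracic gene, stood at 52.7, 47.9, 90.8 and 4.13 CPM in the same order. Hoxc8 stood at 49.0, 37.6, 160 and 4.44 CPM. For these 3 genes the IMP1 KO library was the highest and the IMP2 KO library the lowest. Hoxa10, which acts in the proximal limb and the lower trunk, stood at 36.3 and 53.9 CPM in the wild types, 0.259 in IMP1 KO and 4.62 in IMP2 KO. Hoxa7 stood at 34.1, 30.6, 68.9 and 19.3 CPM, and Hoxa5 at 34.2, 27.8, 42.3 and 23.9 CPM. Hoxa10 alone among the 6 was far below both wild types in both knockouts, while Hoxa5 stayed within 1.5-fold of its own wild type in each.

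**Figure D1:**
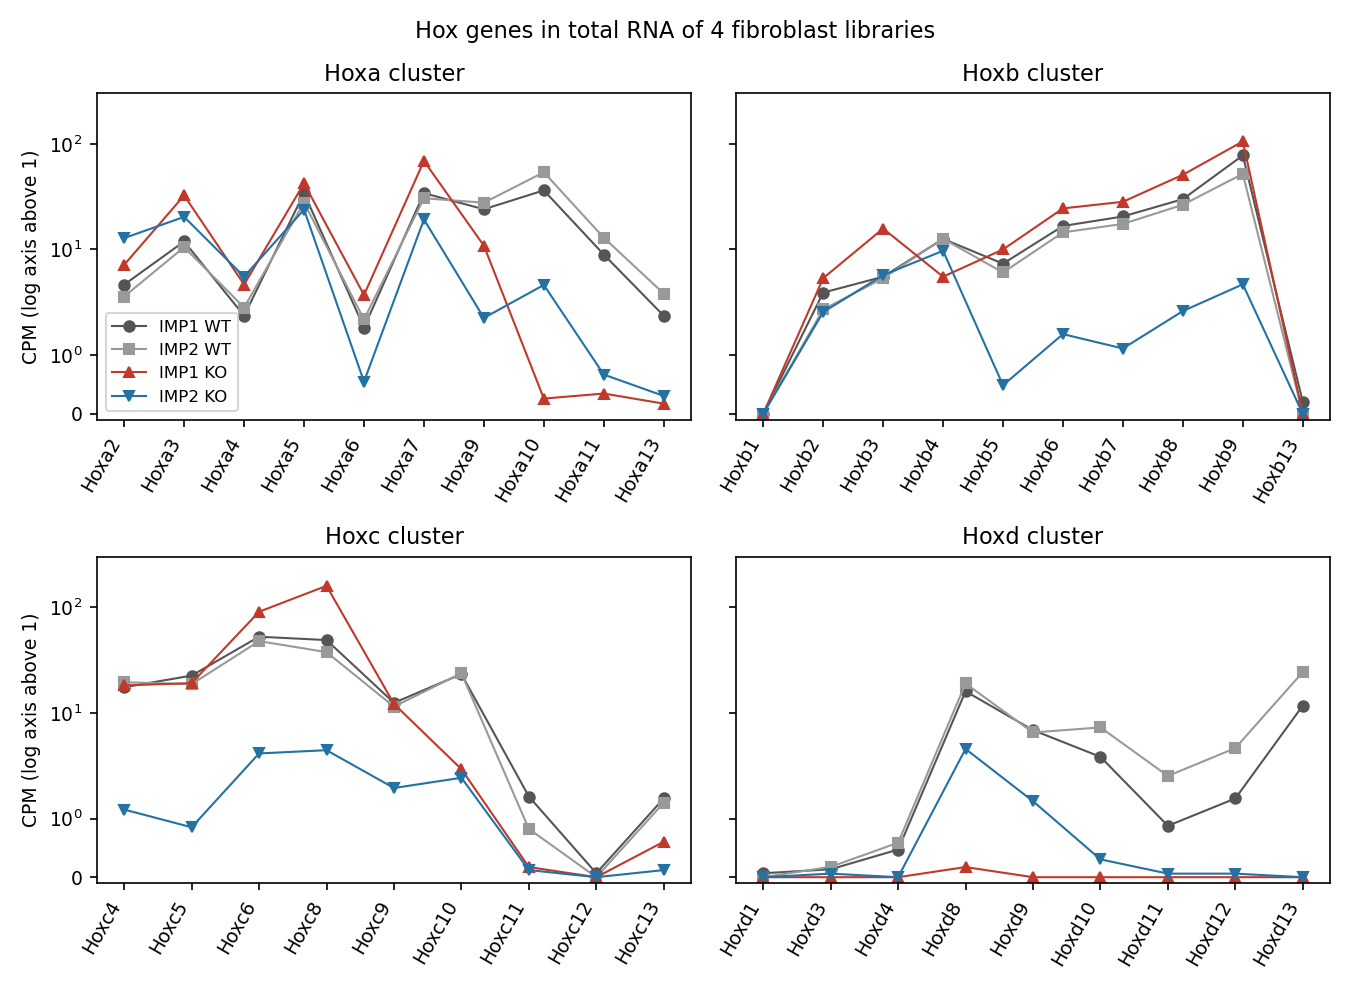
CPM of Hox genes in the 4 total RNA libraries, 1 panel per cluster, genes in paralog order on the x axis and CPM on the y axis (linear below 1, log above). The 2 wild-type lines run close together in all clusters but posterior Hoxd, the IMP2 KO line drops from Hoxb5 on and through the Hoxc cluster, and the IMP1 KO line is at or near 0 in the Hoxd cluster and from Hoxa10 on.

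The wild types differed most in the posterior Hoxd genes. With 10 CPM in at least 1 of the pair and a ratio of at least 2, 1 of 19 members differed, against 0.579% of 9498 genes (0.411% higher in IMP1 WT, 0.168% lower). That member was Hoxd13, a gene of the distal limb and genital region, with 174 counts in IMP1 WT and 414 in IMP2 WT, a ratio of 0.481 (95% counting interval 0.401 to 0.576). Its neighbours with lower counts, Hoxd10, Hoxd11 and Hoxd12, had ratios of 0.526, 0.346 and 0.333. Counting intervals lay above 1 for 5 members and below 1 for 8, all 8 of them posterior, against 18.4% and 17.9% of 15131 genes. All counting intervals cover counting error only, not differences between cultures.

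In the IMP1 KO library the Hoxd cluster was almost without counts. The members of the cluster summed to 41.6 CPM in IMP1 WT and 0.173 CPM in IMP1 KO, and only Hoxd8 had any counts in the knockout. Hoxd8, a central gene, had 238 counts in IMP1 WT and 2 in IMP1 KO, a ratio of 0.0108 (0.00130 to 0.0393). Hoxd13 had 174 and 0 counts, which is at least 45.3-fold lower against a floor of 3 counts per library. Hoxd9 had 102 and 0 counts, at least 26.5-fold lower, and Hoxd10 had 57 and 0, at least 14.8-fold lower. Hoxd11 and Hoxd12 had 13 and 23 counts in the wild type and 0 in the knockout, at least 3.38-fold and 5.98-fold lower. Hoxd1, Hoxd3 and Hoxd4 had 1, 2 and 7 counts in the wild type, too few to tell a loss for the first 2.

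The posterior Hoxa genes were low in the same library. Hoxa10 had 539 counts in IMP1 WT and 3 in IMP1 KO, a ratio of 0.00713 (0.00147 to 0.0210). Hoxa11, a gene of the forearm and lower leg, had 133 and 4 counts, and Hoxa13, which patterns the hand and foot, had 35 and 2. Hoxa9, next to Hoxa10, was less reduced, with 357 and 126 counts and a ratio of 0.452 (0.366 to 0.5555). Thus Hoxa10, Hoxa11 and Hoxa13 kept between 0.713% and 7.32% of their wild-type level, whereas Hoxa9 was still counted at 10.9 CPM.

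By counting intervals, 3 of 8 anterior and 10 of 15 central members were above the wild type in IMP1 KO, and no anterior and 3 central members, Hoxb4, Hoxd4 and Hoxd8, were below it. Hoxc8 had 727 counts in IMP1 WT and 1851 in IMP1 KO, 3.26-fold higher (2.99 to 3.56). Hoxb3, an anterior gene of the hindbrain and neck, had 82 and 183 counts, 2.86-fold higher (2.19 to 3.76). Hoxa3, a paralog of Hoxb3, had 177 and 377 counts, 2.73-fold higher (2.28 to 3.28), and Hoxa7 had 507 and 799, 2.02-fold higher (1.80 to 2.26). Hoxb5 to Hoxb9 were between 1.36-fold and 1.70-fold of the wild type. Hoxb4 stood apart in its cluster, with 187 counts in IMP1 WT and 64 in IMP1 KO. The Hoxc cluster split at Hoxc10: Hoxc4 to Hoxc9 were between 0.849-fold and 3.26-fold of the wild type, while Hoxc10 had 346 and 34 counts, a ratio of 0.126 (0.0858 to 0.179).

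Of the 20 members with 10 CPM in either IMP1 library, 4 reached a 2-fold higher and 6 a 2-fold lower level in the knockout. Over all 9820 genes with that level, 5.52% were higher and 5.89% lower, 11.4% in all. The median log2 ratio over all 39 members was -0.24, against 0.02 over the 9820 genes, with medians of 0.22 for anterior, 0.46 for central and -2.85 for posterior members. Counting intervals lay above 1 for 14 of 39 members and below 1 for 15, against 27.9% and 30.0% of the 14703 genes with 10 counts in the pair. Of the 16 posterior members, 12 had an interval below 1 and 1, Hoxb9, above it.

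In the IMP2 KO library most Hox RNA was low, and the anterior members were the exception. The sum over the 39 members was 544 CPM in IMP2 WT and 147 CPM in IMP2 KO. Anterior members summed to 26.9 CPM in IMP2 WT and 47.5 in IMP2 KO, central members to 284 and 80.0, and posterior members to 233 and 19.0. Anterior genes therefore made up 32.4% of the Hox sum in IMP2 KO, against 4.94% in its wild type and 9.18% in IMP1 KO. In bulk RNA, fewer cells with a Hox gene active and less of its RNA per cell cannot be told apart.

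The low members formed runs of neighbouring genes. In the Hoxb cluster, Hoxb5 to Hoxb9 kept between 6.61% and 10.9% of the wild-type level, while Hoxb2, Hoxb3 and Hoxb4 kept between 76.9% and 107%. Hoxb7, a thoracic gene, had 297 counts in IMP2 WT and 19 in IMP2 KO. In the Hoxc cluster, which has no anterior member, Hoxc4 to Hoxc10 kept between 4.55% and 17.0%. Hoxc5 had 318 and 14 counts, a ratio of 0.0455 (0.0246 to 0.0775), and Hoxc4 had 332 and 20, a ratio of 0.0623 (0.03755 to 0.0978). In the Hoxa cluster, Hoxa9 to Hoxa13 kept between 5.17% and 8.58%, and Hoxa11 had 220 and 11 counts, a ratio of 0.0517 (0.0254 to 0.0943).

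The front of the Hoxa cluster did not follow. Hoxa2, a gene of the hindbrain and second pharyngeal arch, had 61 counts in IMP2 WT and 211 in IMP2 KO, 3.58-fold higher (2.68 to 4.84). Hoxa3 and Hoxa4 were 1.94-fold and 1.96-fold of the wild type and Hoxa5 was 0.859-fold. Hoxa7 had a ratio of 0.630, and Hoxa6, with 37 and 9 counts, of 0.251. In the Hoxd cluster, Hoxd13 had 414 counts in IMP2 WT and 0 in IMP2 KO, at least 133.5-fold lower against the floor. Hoxd8 had 323 and 75 counts, a ratio of 0.240 (0.184 to 0.310), and Hoxd9 had 111 and 24, a ratio of 0.223. Hoxd10, Hoxd11 and Hoxd12 had 124, 43 and 79 counts in the wild type and 5, 1 and 1 in the knockout.

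Of the 20 members with 10 CPM in either IMP2 library, 1 reached a 2-fold higher and 15 a 2-fold lower level. Over all 9936 genes, 7.59% were higher and 7.45% lower, 15.0% in all. The median log2 ratio over the 39 members was -2.57, against -0.02 over the 9936 genes. It was 0.05 for anterior, -3.05 for central and -3.33 for posterior members. Counting intervals lay below 1 for 28 of 39 members and above 1 for 3, against 31.6% and 32.0% of 15488 genes.

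Other cell-type markers moved in the IMP2 KO library. The 4 chondrocyte markers summed to 184 CPM in IMP2 WT and 11283 CPM in IMP2 KO, all 4 at least 2-fold higher, with Col2a1, the collagen of cartilage, at 160 and 10514 CPM and Sox9 at 21.5 and 239 CPM. The 5 macrophage markers summed to 10.3 and 78.8 CPM, with Csf1r at 4.23 and 33.1 CPM and Adgre1 at 1.12 and 24.4 CPM. In the IMP1 pair these sums were 366 and 167 CPM for chondrocyte and 9.02 and 1.47 CPM for macrophage markers, with Ptprc, Adgre1 and Cx3cr1 at 0 in IMP1 KO. The 5 skeletal muscle markers summed to 23.1 CPM in IMP1 WT and 1.98 in IMP1 KO, and to 20.9 in IMP2 WT and 1.15 in IMP2 KO, with Des giving 22.6 and 20.6 CPM of the wild-type sums. Of the 14 fibroblast markers, 3 were at least 2-fold higher and 3 lower in each knockout. Over all genes with 10 CPM, 5.52% were higher and 5.89% lower in IMP1 KO, and 7.59% and 7.45% in IMP2 KO. In the IMP2 pair Thy1 stood at 689 and 92.2 CPM, Prrx1 at 576 and 163 and Twist2 at 19.9 and 2.55, all 3 lower, while Pdgfra, Dcn and Lum were higher. In the IMP1 pair Lum, Col3a1 and Fn1 were lower and Postn, Pdgfrb and Prrx1 higher. The part of these markers' cells in the Hox values was not tested.

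**Figure D2:**
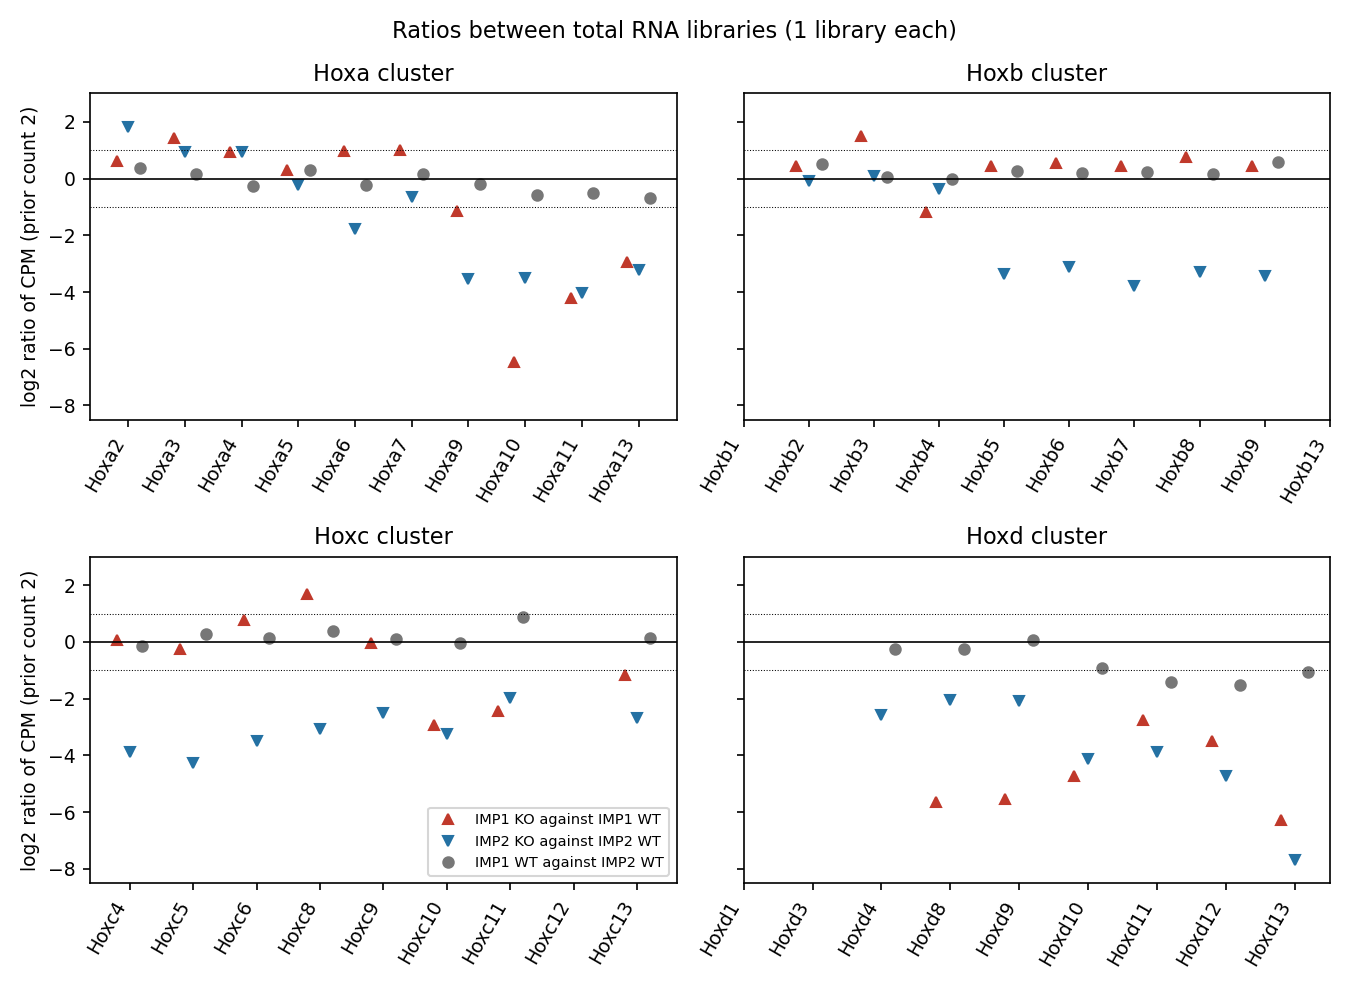
Log2 ratio of CPM (prior count 2) for Hox genes with at least 10 counts in a pair, 1 panel per cluster: IMP1 KO against IMP1 WT (up triangles), IMP2 KO against IMP2 WT (down triangles) and IMP1 WT against IMP2 WT (circles), 1 library each. Dotted lines mark 2-fold. The triangles separate from Hoxb5 to Hoxb9 and from Hoxc4 to Hoxc9, lie together well below 0 at Hoxa11 and Hoxa13, and the circles stay within 2-fold except at Hoxd11, Hoxd12 and Hoxd13.

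Set side by side, most posterior members were low in both knockouts, while many central members were high in IMP1 KO and low in IMP2 KO. By counting intervals, 15 members were below the wild type in both knockouts, and 10 were above it in IMP1 KO and below it in IMP2 KO. Over the 14409 genes with 10 counts in each pair, 16.6% were below in both, 6.92% showed the split, and 13.2% were above in both. These 10 were Hoxa5, Hoxa6, Hoxa7, Hoxb5, Hoxb6, Hoxb7, Hoxb8, Hoxb9, Hoxc6 and Hoxc8, with no anterior gene and 1 posterior gene, Hoxb9, among them. Hoxc9, also posterior, was at 0.977-fold of the wild type in IMP1 KO and 0.170-fold in IMP2 KO. Hoxa2, Hoxa3 and Hoxa4 were above the wild type in both. Each knockout was compared with its own wild type, with 1 library on each side, so the difference between the knockouts was not tested.

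Transcription factors that mark the limb and other mesenchyme moved beside the Hox genes. Of 31 such factors on the list, 22 had 10 CPM in an IMP1 library, of which 4 were higher and 11 lower in IMP1 KO by 2-fold or more, with a median log2 ratio of -1.63. In the IMP2 pair 3 of 21 were higher and 12 lower, with a median of -1.82. Over all genes with 10 CPM, 5.52% were higher and 5.89% lower in IMP1 KO, and 7.59% and 7.45% in IMP2 KO. Tbx5, which specifies the forelimb, stood at 16.5 and 21.2 CPM in the wild types, 0 in IMP1 KO and 1.22 in IMP2 KO. Tbx4, a hindlimb factor, stood at 16.9, 23.9, 0 and 2.49 CPM in that order, and Pitx1, which acts upstream of Tbx4, at 38.9, 47.8, 0.0863 and 4.50 CPM. Among factors with 10 CPM, the lowest log2 ratios, which at 0 or 1 count depend on the prior count of 2, were those of Pitx1 and Lhx9 in IMP1 KO, -7.36 and -7.35, each with 1 count there. Tbx4, Tbx5, Lmx1b, Six2 and Zic1 had 0 counts in IMP1 KO, so their order against these is not known. In IMP2 KO the lowest were those of Lhx9 and Shox2, -5.15 and -4.35. Foxd1 and Alx4 had the highest ratios in IMP1 KO, 2.89 and 2.75, and Pax9 and Foxd1 in IMP2 KO, 3.35 and 2.52.

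Some limb factors and posterior Hoxa and Hoxd genes were at or near 0 in the pull-down libraries, while others were well counted there. Over the 9 pull-down libraries Tbx5 had no counts, Tbx4 and Pitx1 reached at most 0.0852 CPM and Lmx1b at most 0.0719 CPM. Prrx1 was at 133 to 201 CPM, Pax9 at 41.4 to 56.0, Twist1 at 26.7 to 46.3 and Foxd1 at 21.6 to 32.7 in the same libraries. These examples were chosen after their values were seen. Hoxd11 reached at most 0.0852 CPM and Hoxd12 0.0820 CPM, each at 0 in several libraries. In a separate edgeR fit of the 9 pull-downs with both wild-type totals, Hoxd10 was lower in the IgG IP than in WT total RNA by a log2 fold change of -2.84 ± 0.32 (SE), with an adjusted p of 5.11e-08. In that fit Hoxd13 differed by -2.88 ± 0.25, with an adjusted p of 5.07e-10. Hoxa13, Hoxd11 and Hoxd12 passed the count filter of that fit only through the WT total libraries. Their lower calls there, which are in the counts below, are therefore no support. Of 16 posterior members tested there, 8 were lower in the IgG IP and 6 higher, and Hoxa9 did not pass. Among those higher were Hoxd9, by 0.68 ± 0.13 (adjusted p = 6.09e-05), and Hoxc13, by 1.67 ± 0.22 (adjusted p = 4.29e-07). Hoxb9 and Hoxc9 were higher too, as were Hoxb13 and Hoxc12, which had 0 to 3 counts in each WT total library. Of 36 members tested there, 12 were higher and 15 lower in the IgG IP, against 43.7% and 44.4% of 16157 genes. For IMP1 against WT total RNA 8 were higher and 22 lower, against 41.4% and 44.7% of genes, and for IMP2 10 and 23, against 39.5% and 41.6%. The labels do not say whether pull-down and total RNA came from the same cultures, so pull-down and cell source cannot be told apart in these values.

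**Figure D3:**
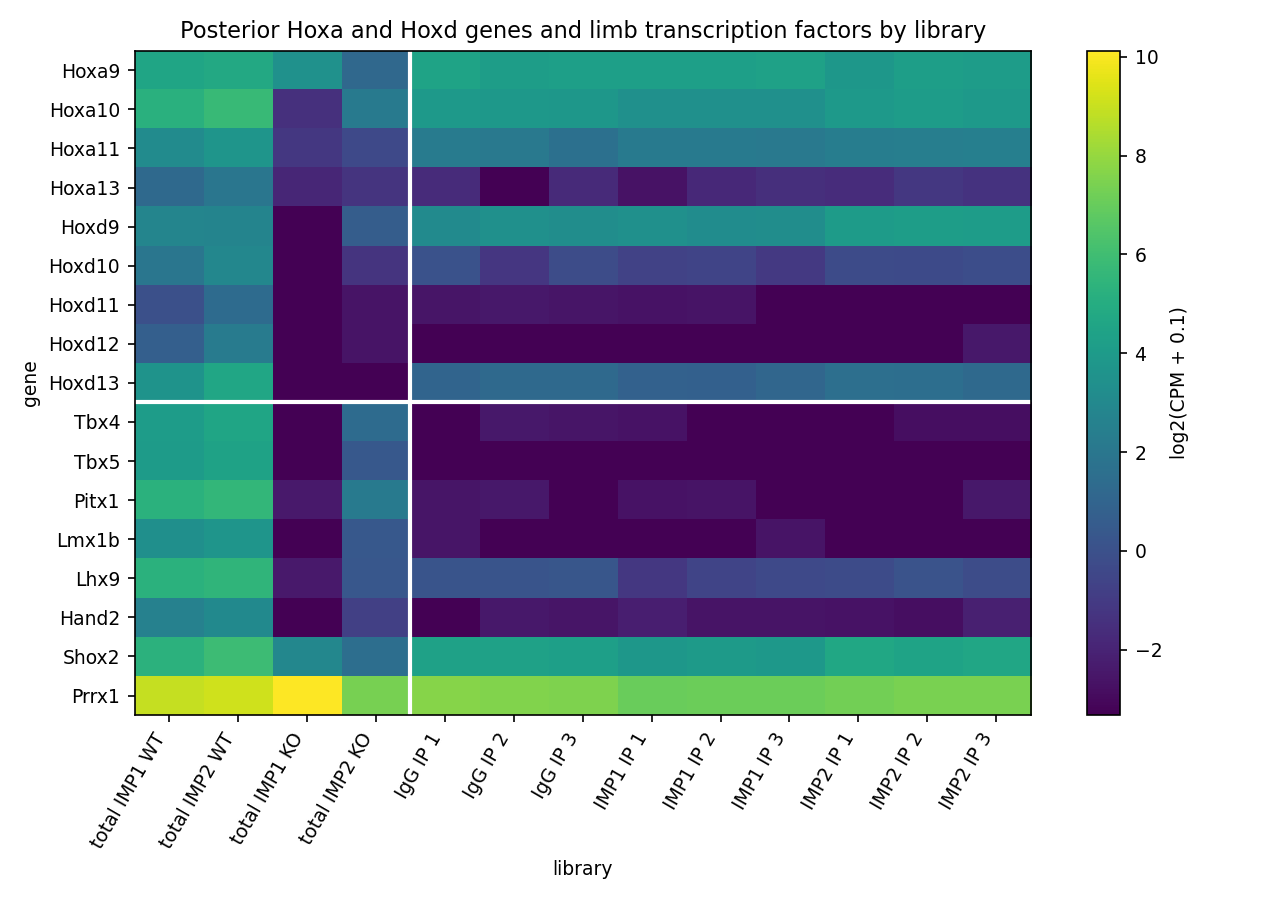
Colour map of log2(CPM + 0.1) for the posterior Hoxa and Hoxd genes (upper rows) and 8 limb and mesenchyme transcription factors (lower rows) in all 13 libraries, total RNA left of the white line and pull-downs right of it, each side scaled on its own. Tbx4, Tbx5, Pitx1 and Lmx1b are dark in IMP1 KO and in all pull-downs, and Hoxd9 to Hoxd13 are dark in IMP1 KO.

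Enrichment in the IMP1 and IMP2 pull-downs was measured against the IgG pull-down with edgeR's quasi-likelihood test, and 33 of the 39 members had enough counts to be tested. Hoxa13, Hoxb1, Hoxd1, Hoxd3, Hoxd11 and Hoxd12 did not. A call means an adjusted p (Benjamini-Hochberg, over 14076 genes) under 0.05. Nuclear long non-coding RNAs also differed between these groups: Malat1, Neat1, Meg3 and Kcnq1ot1 summed to 7086 to 7244 CPM in IgG, 1622 to 1640 in IMP1 and 1072 to 1098 in IMP2, all 4 lower in both pull-downs. Reads outside annotated genes made up 29.2% to 30.4% in the IgG libraries, 9.67% to 9.74% in IMP1 and 6.54% to 7.20% in IMP2. Their part in the Hox values was not tested.

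Hox mRNAs were mostly depleted in the IMP1 pull-down. Against IgG, 21 of the 33 fell, 1 rose and 11 did not pass the test. That is 63.6% lower and 3.03% higher, while 31.9% of all genes fell and 31.7% rose. The share that passed in either direction, 66.7%, was near the 63.6% of all genes. The median log2 fold change was -0.62 for the members and -0.03 for all genes. Libraries of the groups did not overlap for 22 members, 66.7%, against 69.6% of all genes.

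Among members with an average log2 CPM of at least 0, the lowest values in the IMP1 pull-down were those of Hoxc5, Hoxa3 and Hoxc4. Hoxc5, a gene of the lower neck, was at 16.2, 13.5 and 16.6 CPM in IgG, 3.90, 4.23 and 3.83 in IMP1 and 2.61, 3.69 and 3.81 in IMP2. All 6 IMP libraries were below the 3 IgG libraries. Its log2 fold change was -1.96 ± 0.13 (SE) for IMP1 (edgeR adjusted p = 1.23e-11) and -2.17 ± 0.12 for IMP2 (7.71e-13). Hoxa3 was at 10.6, 9.12 and 10.7 CPM in IgG, 3.37, 2.46 and 4.02 in IMP1 and 3.46, 4.48 and 2.71 in IMP2, again with no overlap. It fell by 1.63 for IMP1 (edgeR adjusted p = 2.00e-08) and by 1.52 for IMP2 (1.14e-08) on the log2 scale. Hoxc4 was at 9.06, 9.71 and 9.005 CPM in IgG, 2.72, 3.91 and 3.15 in IMP1 and 3.63, 3.47 and 3.40 in IMP2, a log2 fold change of -1.51 ± 0.13 for IMP1 (edgeR adjusted p = 1.83e-09).

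Only Hoxd8 passed the test as higher in the IMP1 pull-down. It was at 23.8, 26.0 and 23.4 CPM in IgG, 28.2, 28.6 and 26.8 in IMP1 and 30.2, 26.6 and 26.1 in IMP2. Both IMP groups lay just above IgG without overlap. The log2 fold changes were 0.20 ± 0.07 for IMP1 (edgeR adjusted p = 0.0241) and 0.18 ± 0.07 for IMP2 (0.0286). The call for IMP1 was lost without IgG library 1 (edgeR adjusted p = 0.0730), IgG library 3 (0.0884), IMP1 library 1 (0.0515) or IMP1 library 2 (0.0642). That for IMP2 was lost without IgG library 1 (edgeR adjusted p = 0.0799), IgG library 3 (0.0933) or IMP2 library 1 (0.0555). With upper quartile scaling the IMP2 value was -0.001 (edgeR adjusted p = 0.990), and it was lost under several other settings as well.

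In the IMP2 pull-down most anterior and central members were lower than in IgG, as were 2 of 13 posterior members, Hoxa9 and Hoxc9. Against IgG, 17 of the 33 fell, 7 rose and 9 did not pass. That is 51.5% lower and 21.2% higher, while 37.3% of all genes fell and 40.3% rose, 77.6% in all. The 7 that rose were Hoxd9, Hoxb13, Hoxc10, Hoxb7, Hoxa11, Hoxa7 and Hoxd8, none of them anterior. The median log2 fold change was -0.34, against 0.04 over all genes. Groups did not overlap for 23 members, 69.7%, against 78.3% of all genes. With total count scaling, which moved the median of all genes by 0.17, 11 members were higher and 15 lower. Without IgG library 3, 4 members were higher in place of 7.

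Hoxd9, Hoxc10 and Hoxb7 had the highest values in the IMP2 pull-down among members with an average log2 CPM of at least 0. Hoxd9, a posterior gene of the limb and trunk, was at 8.41, 10.6 and 9.70 CPM in IgG, 10.4, 9.15 and 9.39 in IMP1 and 16.8, 17.7 and 17.4 in IMP2. The IMP2 libraries were all above the other 6, which overlapped. Its log2 fold change for IMP2 was 0.86 ± 0.09 (edgeR adjusted p = 3.13e-08), and for IMP1 0.02 ± 0.11 (0.885). Hoxb7 was at 10.4, 11.7 and 11.5 CPM in IgG, 12.2, 7.57 and 11.2 in IMP1 and 17.1, 16.0 and 14.4 in IMP2, with a log2 fold change of 0.49 ± 0.12 for IMP2 (edgeR adjusted p = 0.000859). Hoxb5 was among the lowest, at 13.6, 16.8 and 14.1 CPM in IgG, 5.02, 6.18 and 4.76 in IMP1 and 3.24, 4.26 and 3.77 in IMP2. It fell by 1.96 for IMP2 (edgeR adjusted p = 4.52e-12) and by 1.47 for IMP1 (7.98e-10).

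Hoxc10, a posterior gene of the lumbar trunk and hindlimb, was the one member that passed in opposite directions. It was at 16.2, 18.5 and 18.4 CPM in IgG, 9.80, 10.9 and 9.64 in IMP1 and 28.3, 32.8 and 30.6 in IMP2. The groups did not overlap, with means of 17.7 ± 1.26, 10.1 ± 0.659 and 30.6 ± 2.25 CPM (SD, n = 3). The log2 fold changes were -0.81 ± 0.09 for IMP1 (edgeR adjusted p = 1.25e-07) and 0.79 ± 0.08 for IMP2 (5.68e-09). Between the IMP groups it was -1.60 ± 0.08 (edgeR adjusted p = 6.71e-14), the lowest of the tested members.

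**Figure D4:**
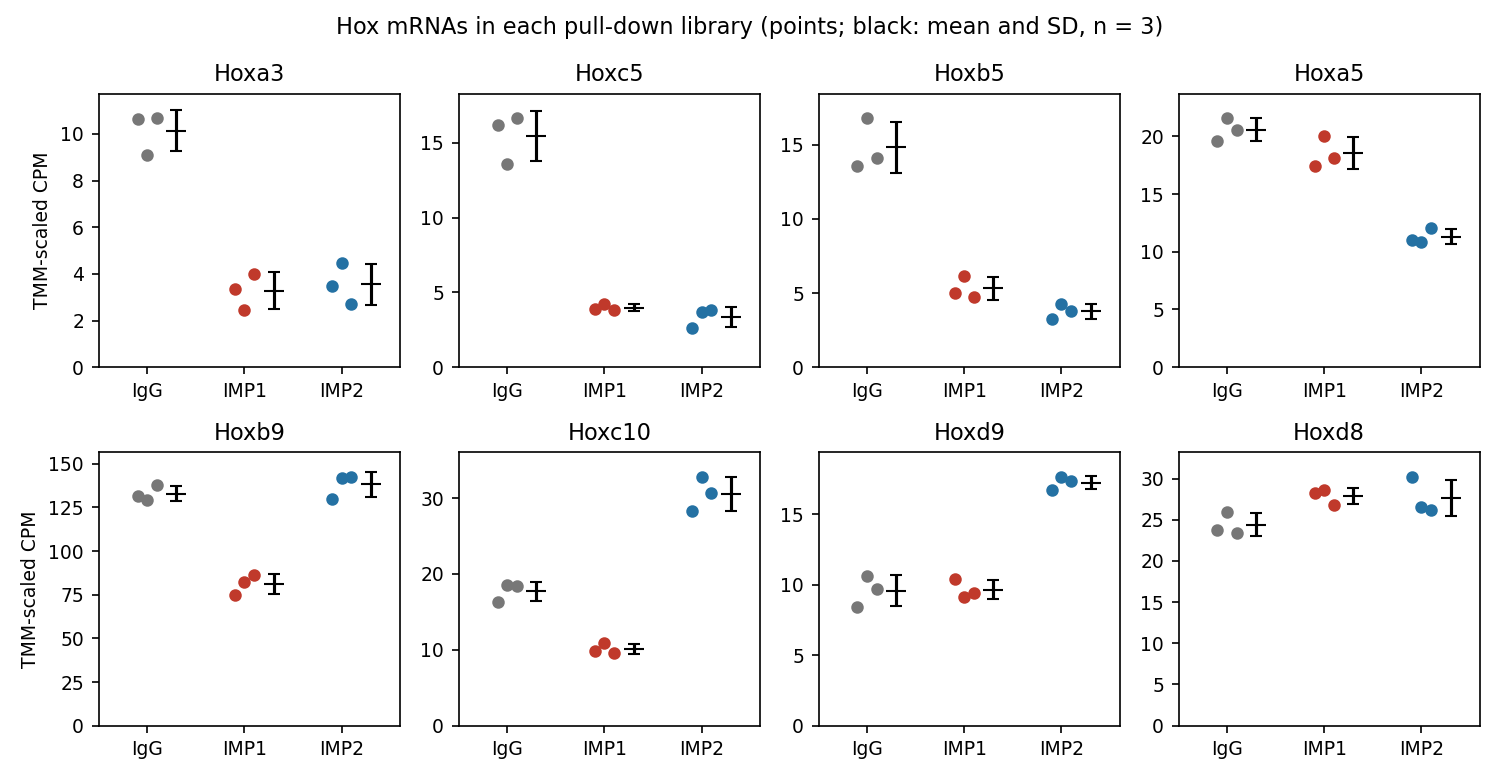
CPM, TMM-scaled over the 9 pull-downs, of 8 Hox genes in each IgG, IMP1 and IMP2 library (points), with mean and SD (n = 3) beside them; every y axis starts at 0 and has its own range. Hoxa3, Hoxc5 and Hoxb5 are low in both IMP groups, Hoxa5 is lowest in IMP2, Hoxb9 is lowest in IMP1, Hoxc10 and Hoxd9 are highest in IMP2, and Hoxd8 differs little.

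The members with the highest wild-type CPM took intermediate places. Hoxb9 was at 132, 129 and 138 CPM in IgG, 75.0, 82.3 and 86.3 in IMP1 and 130, 142 and 143 in IMP2. It fell by 0.71 for IMP1 (edgeR adjusted p = 5.20e-11) and did not pass for IMP2, at 0.06 ± 0.05. Hoxc6 was at 50.4, 47.4 and 50.7 CPM in IgG, 30.5, 32.8 and 33.4 in IMP1 and 37.0, 37.7 and 38.8 in IMP2. Hoxc8 was at 28.4, 29.6 and 29.6 CPM in IgG, 15.1, 13.1 and 14.2 in IMP1 and 19.3, 22.3 and 19.0 in IMP2. Both fell in both pull-downs, Hoxc8 by 1.05 and 0.53 and Hoxc6 by 0.62 and 0.39. Hoxa10 was at 15.4, 14.4 and 13.99 CPM in IgG, 10.7, 10.5 and 10.6 in IMP1 and 15.5, 17.1 and 15.1 in IMP2, passing as lower for IMP1 alone. Hoxa7 was at 11.6, 12.9 and 12.1 CPM in IgG, 10.2, 9.09 and 11.8 in IMP1 and 15.7, 16.7 and 15.3 in IMP2, passing as higher for IMP2 alone. Directly compared, IMP1 was lower than IMP2 for Hoxa10 by a log2 fold change of -0.58 (edgeR adjusted p = 1.87e-06) and for Hoxa7 by -0.62 (3.12e-06).

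Compared directly, IMP1 held less of the posterior Hox mRNAs than IMP2. Of the 33 members, 17 were lower and 5 higher in IMP1 than in IMP2, and 11 did not pass. These shares, 51.5% and 15.2%, stand beside 37.3% lower and 34.1% higher among all genes, 71.4% in all. The median log2 fold change was -0.40, against -0.01. Groups did not overlap for 25 members, 75.8%, against 73.2% of all genes. With total count scaling, which moved the median of all genes by -0.32, 24 were lower and 1 higher.

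The 5 higher in IMP1 were Hoxa5, Hoxa6, Hoxb5, Hoxb3 and Hoxa9, from the front and middle of the clusters except the last. Hoxa5, a gene of the lower neck and lung, was at 19.6, 21.6 and 20.6 CPM in IgG, 17.4, 20.1 and 18.2 in IMP1 and 11.02, 10.8 and 12.02 in IMP2. Only the IMP2 libraries stood apart, and the log2 fold change of IMP1 against IMP2 was 0.71 ± 0.08 (edgeR adjusted p = 7.56e-08). Hoxa6 was at 7.69, 7.50 and 8.59 CPM in IgG, 5.84, 5.68 and 5.62 in IMP1 and 4.77, 3.47 and 3.86 in IMP2, a log2 fold change of 0.52 ± 0.13 (edgeR adjusted p = 0.00120). Hoxb5 had 0.49 ± 0.15 (edgeR adjusted p = 0.00514). Of the 17 lower, Hoxd9 had -0.84 ± 0.09 (edgeR adjusted p = 2.12e-08) and Hoxc11 -0.77 ± 0.30 (0.0261). Hoxc11, at 0.531, 0.883 and 0.432 CPM in IMP1 and 1.19, 1.14 and 0.861 in IMP2, overlapped between the groups. Without IMP1 library 2, IMP1 library 3 or IMP2 library 1, 3 members were higher in place of 5.

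Read along the clusters, the pull-down values followed paralog number. Against IgG, all 5 anterior members tested fell in IMP1, as did 11 of 15 central and 5 of 13 posterior members, with medians of -0.80, -0.78 and -0.46. In IMP2, 4 of 5 anterior and 11 of 15 central members fell, while 4 of 13 posterior members rose and 2 fell, with medians of -1.09, -0.62 and 0.15. Over all genes, 31.9% fell in IMP1, and in IMP2 37.3% fell and 40.3% rose. The posterior shares were 38.5% lower in IMP1, and 15.4% lower and 30.8% higher in IMP2, so posterior members rose in IMP2 less often than all genes. Of IMP1 against IMP2, 10 of 13 posterior members were lower and 1, Hoxa9, higher, against 37.3% and 34.1% of all genes. Over the 33 members, Spearman's rho between log2 fold change and paralog number was 0.49 for IMP1 against IgG, 0.76 for IMP2 against IgG and -0.70 for IMP1 against IMP2. These are descriptions across genes, which share libraries and are not independent, and the first 2 share the IgG libraries. With WT total RNA as the background the same measure, over 36 members, was -0.01 for IMP1 and 0.13 for IMP2. That set adds Hoxa13, Hoxd11 and Hoxd12, posterior members with too few pull-down counts to be tested against IgG. For IMP2 against WT total RNA they stood at -3.21, -7.74 and -6.21. The sets are unlike, so these values cannot tell whether the trend against IgG holds against total RNA.

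**Figure D5:**
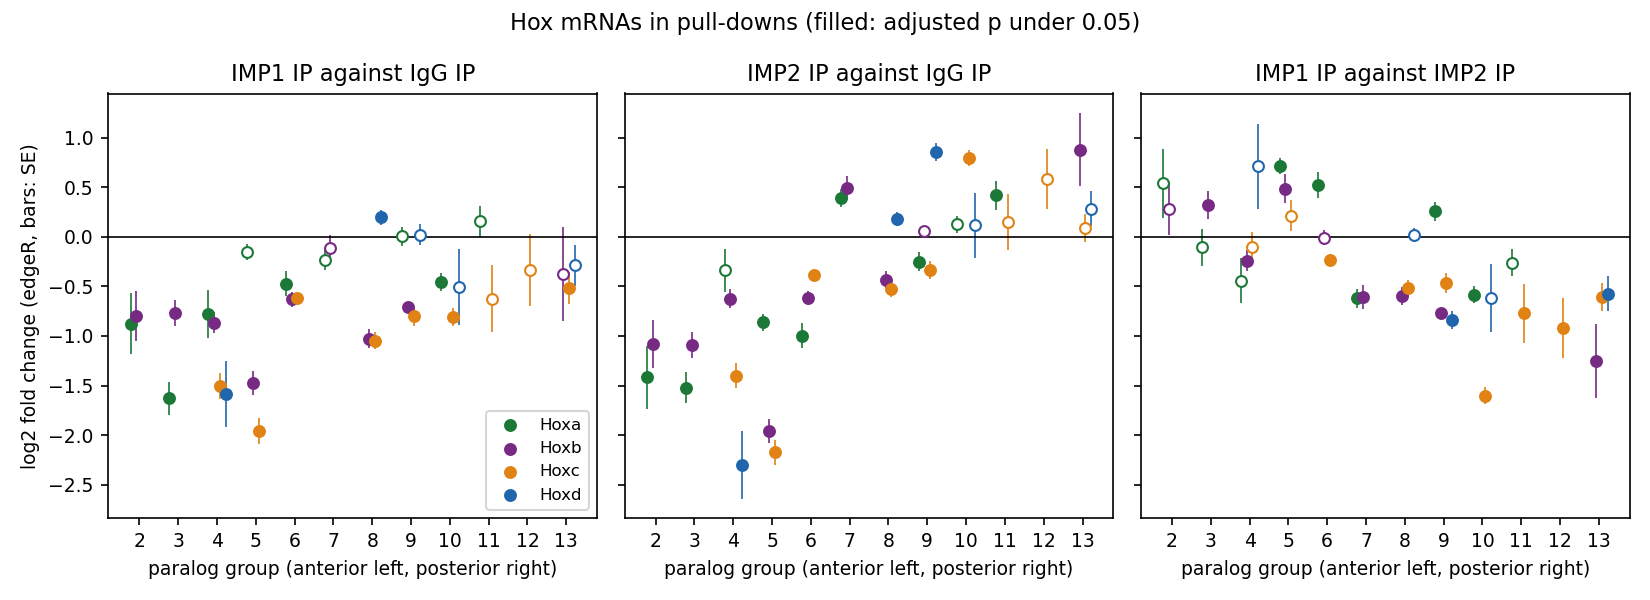
Log2 fold change (edgeR, bars SE) of tested Hox genes by paralog group on the x axis, coloured by cluster, for IMP1 IP against IgG IP, IMP2 IP against IgG IP and IMP1 IP against IMP2 IP; filled points have an adjusted p under 0.05. The 4 lowest points of the first and of the second panel belong to groups 3 to 5, points from group 10 on lie above 0 in the second, and from group 7 on all but Hoxd8 and Hoxa9 lie below 0 in the third.

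Summed over the members, Hox RNA stood at 514 to 522 CPM in the IgG libraries, 331 to 347 in IMP1 and 439 to 471 in IMP2. Hoxb9 alone gave 133, 81.2 and 138 CPM of the group means. Posterior genes gave 43.8% ± 0.838 of the sum in IgG, 45.3% ± 0.955 in IMP1 and 55.1% ± 1.80 in IMP2 (SD, n = 3), and anterior genes 4.84% ± 0.202, 3.65% ± 0.268 and 2.62% ± 0.212. In CPM, posterior genes averaged 227 in IgG, 154 in IMP1 and 250 in IMP2, and central genes 266, 173 and 192. The Hoxd cluster gave 7.47% ± 0.399 in IgG, 11.96% ± 0.620 in IMP1 and 10.8% ± 0.740 in IMP2. The ranges of the Hoxd share in IMP1 and IMP2 overlapped, and both lay above IgG. In CPM the Hoxd sum was 37.2 to 41.2 in IgG, 39.5 to 41.7 in IMP1 and 46.9 to 51.0 in IMP2. The IMP1 sums thus overlapped IgG, and the higher Hoxd share in IMP1 went with a lower sum over all members.

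Some members lie over one another in the annotation, so that their counts are less certain. The span of Hoxa3 covers Hoxa4, Hoxa5 and Hoxa6, and Hoxb3 overlaps Hoxb4, Hoxd3 overlaps Hoxd4, and Hoxd10 overlaps Hoxd11. The sources used here do not say whether the counting used strand. Reads left out as ambiguous between genes made up 7.11% to 7.67% in the IgG libraries, 2.52% to 2.61% in IMP1 and 2.69% to 2.79% in IMP2. Their part in the values of overlapping members was not tested. Hox cluster non-coding RNAs, several of them antisense to members, also differed between the libraries. Hoxb5os stood at 6.33 and 6.64 CPM in the IMP1 and IMP2 wild types, 16.5 in IMP1 KO and 0.182 in IMP2 KO. Hoxa11os, in the same order, stood at 3.57, 4.06, 0 and 0.182 CPM, and Hoxaas2 at 2.29, 2.53, 5.44 and 12.6 CPM. In the pull-downs, 5 of 7 tested fell in IMP1 and the same number in IMP2, none rose, and the medians were -0.93 and -2.02. Of all genes, 31.9% fell and 31.7% rose in IMP1, and 37.3% fell and 40.3% rose in IMP2. The lowest were Hoxaas2, -1.83, and Hoxd3os1, -1.43, for IMP1, and Hoxaas2, -2.62, and Hoxb5os, -2.59, for IMP2. Between the pull-downs, Hoxb5os, 1.66, and Hoxaas3, 1.15, were higher in IMP1.

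The TALE homeodomain proteins are cofactors with which Hox proteins bind DNA. Counts in this list and those below stand beside the shares of all genes. Against IgG, 31.9% fell and 31.7% rose in IMP1, and 37.3% fell and 40.3% rose in IMP2. Of IMP1 against IMP2, 37.3% were lower and 34.1% higher. In total RNA with 10 CPM, 5.52% were 2-fold higher and 5.89% lower in IMP1 KO, and 7.59% and 7.45% in IMP2 KO. Of 8 with 10 CPM in the IMP1 pair, Meis1 and Meis2 were higher in IMP1 KO, with log2 ratios of 1.62 and 1.18, and Tgif1 lower, -1.15. Of 9 in the IMP2 pair, Pknox2 was higher, 1.67, and Pbx3 lower, -1.06. Against IgG, 8 of 11 fell and none rose in IMP1, with a median of -0.44 and the lowest values for Pbx4, -1.08, and Meis2, -0.85. In IMP2, 4 fell and 2 rose, with a median of -0.07, from Meis2, -0.66, and Meis1, -0.47, to Pknox1, 0.25, and Meis3, 0.57. Directly compared, 9 of 11 were lower in IMP1 than in IMP2, with Pbx4 at -1.075 and Meis3 at -0.74.

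Polycomb and Trithorax regulators maintain the pattern of active and silent Hox genes. In total RNA none of 28 was 2-fold apart in the IMP1 pair, with no test possible for 1 library each, though Phc2 came close at 190 and 95.2 CPM, as did Bmi1 at 49.6 and 97.9 CPM in WT and KO. In the IMP2 pair Phc1 alone of 28 passed 2-fold, with a log2 ratio of 1.17, and Ezh1 came close at 20.5 and 40.6 CPM. The members near the limit were chosen after their values were seen. In the IMP1 pull-down 15 of 30 rose and 8 fell, from Pcgf2, -0.85, and Jarid2, -0.45, to Suz12, 0.82, and Cbx6, 0.86, with a median of 0.16. In the IMP2 pull-down 10 of 30 rose and 10 fell, both smaller shares than the 40.3% and 37.3% of all genes. They ran from Kmt2d, -1.55, and Jarid2, -1.44, to Rbbp4, 0.79, and Dpy30, 1.105, with a median of -0.03. Directly compared, 15 were higher in IMP1, led by Kmt2a, 1.44, and Ash1l, 1.297, and 10 lower, led by Dpy30, -1.35, and Rbbp4, -1.015.

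Retinoic acid, which induces anterior Hox genes in the embryo, is handled by several measured genes. The list also holds other upstream factors, among them the ligand Gdf11. In IMP1 KO, the retinoic acid-making enzyme Aldh1a1 and Gdf11 were higher, with log2 ratios of 2.77 and 1.11. Crabp1 and Crabp2, which bind retinoic acid in the cytoplasm, were lower, -5.13 and -6.12. In IMP2 KO, Aldh1a1 was again higher, 1.24, and Crabp1 and Crabp2 lower, -4.69 and -4.10. The 9 genes with 10 CPM had a median of 0.21 in the IMP1 pair and 0.51 in the IMP2 pair. Of 10 tested in the pull-downs, 2 rose and 6 fell in IMP1, from Rarb, -1.15, and Crabp2, -1.05, to Rxra, 0.35, and Rxrb, 0.51. In IMP2, 6 rose and 4 fell, from Rarb, -2.12, and Crabp2, -1.57, to Rxra, 0.69, and Crabp1, 1.00. Between the pull-downs, Rarb was higher in IMP1, 0.97, and 6 were lower, led by Crabp1, -1.18, and Rarg, -0.65. Cdx1, Cdx2 and Cdx4, factors that activate posterior Hox genes in the embryo, had no counts in any of the 4 total RNA libraries. With the floor of 3 counts this allows up to 0.203 CPM in IMP1 WT and 0.2625 in IMP1 KO, the highest of the 4.

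The limb and mesenchyme factors were also measured in the pull-downs. Of 21 tested, 11 fell and 2 rose in IMP1, led by Pax1, -1.47, and Lhx9, -0.97, and by Foxd1, 0.25, and Twist1, 0.24. In IMP2, 6 fell and 8 rose, led by Zic1, -0.90, and Pax3, -0.57, and by Pax1, 0.89, and Prrx2, 0.67. Directly compared, 14 were lower in IMP1 and none higher, led by Pax1, -2.36, and Six2, -1.27. Protein-coding neighbours of the clusters served as a local comparison. Of 6 with 10 CPM, only Snx10 was 2-fold apart in a knockout, -2.04 in IMP1 KO. In IMP1, 3 of 6 rose, among them Snx10, 0.47, and Skap2, 0.30, and in IMP2 4 rose, led by Mtx2, 0.76, and Snx10, 0.65, and Cbx5 fell, -0.27. Of IMP1 against IMP2, Cbx5 was higher, 0.56, and 3 were lower, led by Mtx2, -0.81, and Snx10, -0.19.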

How the data were processed

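RNA was sequenced from 9 pull-down and 4 total RNA libraries. The authors deposited whole-number read counts per Ensembl gene; STAR, HTSeq and mm10 are named per the submitters' processing notes, and versions and the strand setting are not given in the sources used here. Rows that name no gene were left out of library sizes. Symbols came from the gene table provided (42462 IDs matched).

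The pull-downs were fitted together in edgeR 4.0.16 (R 4.3.3) with TMM scaling, its count filter by group and the quasi-likelihood test, without a replicate block. P-values were adjusted by Benjamini-Hochberg over 14076 genes, and a call is an adjusted p under 0.05. Total RNA libraries, 1 per group, were scaled by TMM and compared as ratios with no test. A call there is a 2-fold ratio with 10 CPM in either library; log2 ratios used a prior count of 2, intervals are exact 95% conditional binomial intervals, and the floor for 0 counts is 3 counts per library. The fit was tested on simulated data.

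The members and gene lists were chosen with earlier results of these data known. Genes named in full are the 6 highest in wild-type CPM, the 3 highest and 3 lowest of those past the threshold in each pull-down comparison (average log2 CPM of at least 0), and those beyond the total RNA threshold; of each other list, the 2 highest and 2 lowest past the threshold are named. The individual values of 1 member are not reported here, in text or figures; it stays in counts, sums and medians. Further members are given to account for each cluster and were chosen after their values were seen. Alternatives were DESeq2 1.42.0, limma 3.58.1, other scalings and filters, a replicate block, wild-type total RNA as background, and leaving out each library.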

Additional observations from a re-analysis of the deposited data

Results flagged for a closer look

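Hoxc10 differed between the IMP1 and IMP2 pull-downs under the same contrast with IgG, by a log2 fold change of -1.60 in edgeR's test of IMP1 against IMP2. Hoxc8 was higher than its wild type in the IMP1 KO library and lower in the IMP2 KO library, and the log2 ratios differ by 4.75. With 1 library on each side, that difference was not tested.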

How the results depend on the processing

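Of the 33 tested members, the number higher in IMP1 than in IgG (1 as reported) was 0 under upper quartile scaling, total count scaling, the DESeq2 Wald test or a 10 CPM filter, and 8 with WT total RNA as background. The number lower was 13 with the 10 CPM filter, which tests fewer genes. For IMP2 against IgG, the number higher was 4 under upper quartile scaling, DESeq2 or the 10 CPM filter and 11 under total count scaling, and the number lower was 11 with the 10 CPM filter. For IMP1 against IMP2, 1 was higher under total count scaling and 3 with the 10 CPM filter, and 11 were lower under DESeq2 and 10 with that filter. Leaving out 1 library gave 0 to 1 higher and 19 to 22 lower for IMP1, 4 to 7 and 16 to 17 for IMP2, and 3 to 5 and 13 to 17 for IMP1 against IMP2. With a replicate block the counts were 1 and 21, 6 and 17, and 4 and 16. Same-numbered IMP1 and IMP2 libraries correlated at 0.35, 0.0074 and 0.31, and same-numbered pairs with IgG between -0.20 and 0.0101. With 3 libraries a group, these values cannot tell whether the numbers pair libraries.

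Among members past the threshold against either background, IMP1 values changed sign with WT total RNA for Hoxb6 (0.76), Hoxc13 (1.196), Hoxb9 (0.53), Hoxc9 (0.0894), Hoxa11 (-1.11), Hoxa6 (1.71), Hoxb13 (1.82), Hoxc12 (4.13) and Hoxd4 (0.14). IMP2 values did so for Hoxb6 (0.73), Hoxa10 (-1.34), Hoxd13 (-2.59), Hoxc9 (0.51), Hoxa11 (-0.89), Hoxa7 (-0.86), Hoxb7 (-0.10), Hoxa6 (1.15) and Hoxd10 (-2.72). Upper quartile scaling turned Hoxb9 (-0.12) and Hoxd8 (-0.001) for IMP2, the 10 CPM filter Hoxb9 (-0.1153), and total count scaling Hoxd8 (-0.31), Hoxa9 (-0.0705) and Hoxb3 (-0.0052) for IMP1 against IMP2. The cause was not tested. Counting paralog 4 as anterior moved the anterior share to 9.43% in IgG, 6.87% in IMP1, 5.38% in IMP2, 11.7% and 13.1% in IMP1 WT and KO, and 11.5% and 43.7% in IMP2 WT and KO. Counts of calls in total RNA stayed within 1.5 times under the alternatives run, while 9 single-gene ratios in the IMP1 pair and 5 in the IMP2 pair moved beyond their counting interval, most with the other wild type in place. With IMP2 WT as its wild type, the log2 ratio of Hoxb9 in IMP1 KO was 1.02 and that of Hoxc8 2.08. Levels per kilobase were not run, since transcript lengths were not used here. With 1 library per group, depth limits only the counting error.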
